A study of Mus musculus with 19 samples.

Results

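A set of 5 genes from the mouse chromosome 6 neighbourhood around Gdf3 and Nanog is described here across myeloid progenitors with and without the DNA methyltransferase Dnmt3a. They are 5 of the 15781 genes that the exon arrays measured. In the order of the reference gene table they are Apobec1, Gdf3, Dppa3, Nanog and Slc2a3. The neighbourhood was chosen by the measured level of Gdf3, which was higher in Dnmt3a-/- than in wild-type CMP and GMP, so the values of Gdf3 in those comparisons are given as a description and without a test. The other 4 genes are members by position. A gene's level on an array is the mean log2 intensity over probe sets annotated to that gene and no other, of which there were 3 for Gdf3, 9 for Apobec1, 2 for Dppa3, 8 for Nanog and 12 for Slc2a3.

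RNA was profiled in progenitors sorted from mouse bone marrow, the common myeloid progenitor (CMP) and the granulocyte-monocyte progenitor (GMP). The groups are PR+/- Dnmt3a-/- GMP (4 arrays), PR+/- GMP (2 arrays), Dnmt3a-/- GMP (3 arrays), wild-type GMP (4 arrays), Dnmt3a-/- CMP (3 arrays) and wild-type CMP (3 arrays). The wild-type and Dnmt3a-/- mice are labelled C57Bl/6J, and the labels of the PR+/- mice name no strain. The title of the series is the basis for reading PR as PML-RARA, the fusion gene of acute promyelocytic leukaemia. The labels give no age, no promoter that drives PR, no description of the Dnmt3a allele, and no word on whether each array stands for its own animal. The p-values therefore measure the spread between these samples, which may be technical. In sorted bulk RNA, fewer cells that express a gene and less of its RNA per cell cannot be told apart.

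Dnmt3a itself was lower on every array labelled Dnmt3a-/-, at 5.82 to 6.26 in PR+/- Dnmt3a-/- GMP against 7.07 and 7.20 in PR+/- GMP, at 6.06 to 6.22 in Dnmt3a-/- GMP against 7.30 to 7.59 in wild-type GMP, and at 6.37 to 6.49 in Dnmt3a-/- CMP against 7.24 to 7.65 in wild-type CMP. Of 12 genes that define CMP and GMP, 11 were measured, and their mean was 8.21 to 9.94 on every array. Immediate early genes were high on 5 arrays (7.78 to 8.91, against 5.92 to 7.54 on the other arrays), namely wild-type CMP replicate 1, wild-type GMP replicates 1 and 2, and PR+/- Dnmt3a-/- replicates 1 and 2. The Y-linked genes were low (2.54 to 3.25) on all 6 arrays of Dnmt3a-/- CMP and GMP, on wild-type CMP replicate 3, wild-type GMP replicate 4 and PR+/- Dnmt3a-/- replicate 2, and lay between 6.73 and 7.25 on the others.

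Gdf3 encodes a secreted ligand of the TGF-beta superfamily that acts beside Nodal in the early embryo through activin receptors and the co-receptor Cripto, with Smad proteins carrying the signal to the nucleus. Dppa3 protects the methylation of the maternal genome after fertilisation, and Nanog is a homeobox factor of pluripotent cells. Apobec1 is a cytidine deaminase that edits RNA, best known for apolipoprotein B mRNA, and Slc2a3 encodes the glucose transporter GLUT3. Gdf3, Dppa3 and Nanog are best known from embryonic stem cells and germ cells, where they are active together. Dnmt3a places methyl groups on cytosines of CG dinucleotides.

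Because CG dinucleotides are what Dnmt3a acts on, promoter windows are shown with each CG in capitals. RefSeq windows of 300 bases that span the start of the gene were matched for 2 of the 5 genes, Apobec1 and Nanog. Positions are those of GRCm38.p6. The Apobec1 window lies on the minus strand at chr6:122602395-122602694, and the Nanog window, 1 of 2 listed for that gene, lies on the plus strand at chr6:122707239-122707538.
Apobec1: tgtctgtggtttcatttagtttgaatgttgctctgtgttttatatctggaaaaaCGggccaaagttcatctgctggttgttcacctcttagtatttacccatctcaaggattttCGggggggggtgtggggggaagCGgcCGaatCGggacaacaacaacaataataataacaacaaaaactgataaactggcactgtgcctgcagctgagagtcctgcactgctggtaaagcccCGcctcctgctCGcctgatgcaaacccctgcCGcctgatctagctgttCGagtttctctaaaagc
Nanog: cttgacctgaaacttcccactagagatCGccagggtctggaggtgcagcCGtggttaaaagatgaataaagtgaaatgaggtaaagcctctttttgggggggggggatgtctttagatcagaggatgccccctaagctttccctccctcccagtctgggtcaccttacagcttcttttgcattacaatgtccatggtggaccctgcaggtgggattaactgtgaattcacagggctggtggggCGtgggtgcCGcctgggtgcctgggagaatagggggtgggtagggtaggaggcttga
The Apobec1 window holds 9 CG and has a GC content of 48.3%, and the Nanog window holds 4 CG and has a GC content of 54.3%. The letters CG read the same on both strands. The median over 32851 windows of the same length was 7 CG, 45.8% of them held at least as many as Apobec1 and 68.6% at least as many as Nanog. The arrays measure RNA and hold no methylation value for these bases.

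To place the levels, a list of 40 tissue-restricted genes that bone marrow is not known to use was read, of which 36 were measured. Their median level was 4.14 and their 95th percentile 5.73 on the log2 scale, while the median of all gene means was 5.37. A gene mean under 5.73 is called within the background range here. A gene mean can join bright and dim probe sets, and 2 of the 3 Gdf3, 6 of the 9 Apobec1, 2 of the 8 Nanog, 7 of the 12 Slc2a3 and 0 of the 2 Dppa3 probe sets averaged above 5.73 over the 19 arrays. That line was set on gene means, so a single probe set above it is not shown to be above background.

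The mean over the probe sets of Gdf3, the ligand, was above the background range on every array that lacked Dnmt3a and on both PR+/- arrays, and within it on every wild-type array. On the log2 scale it was 7.97, 7.96 and 8.11 in Dnmt3a-/- GMP, against 5.20, 4.70, 4.86 and 5.48 in wild-type GMP. In CMP it was 7.18, 7.44 and 7.29 in Dnmt3a-/- cells, against 5.08, 4.95 and 3.98 in wild-type cells. The groups did not overlap in either cell type.

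With PR, Gdf3 was 7.60, 7.48, 7.86 and 7.46 in PR+/- Dnmt3a-/- GMP, against 6.76 and 6.63 in PR+/- GMP. These groups did not overlap either, and the lowest array without Dnmt3a was above both arrays with it.

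The order of the group means of Gdf3, from high to low, was Dnmt3a-/- GMP (8.01 ± 0.08, SD, n = 3), PR+/- Dnmt3a-/- GMP (7.60 ± 0.19, n = 4), Dnmt3a-/- CMP (7.30 ± 0.13, n = 3), PR+/- GMP (6.69 ± 0.10, n = 2), wild-type GMP (5.06 ± 0.35, n = 4) and wild-type CMP (4.67 ± 0.60, n = 3). Among neighbours in this order, wild-type GMP and wild-type CMP overlapped. PR+/- Dnmt3a-/- GMP and Dnmt3a-/- CMP touched without overlap, with a lowest array of 7.46 and a highest of 7.44. As geometric means of intensity the levels ran from 258.2 in Dnmt3a-/- GMP to 25.4 in wild-type CMP.

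**Figure D1:**
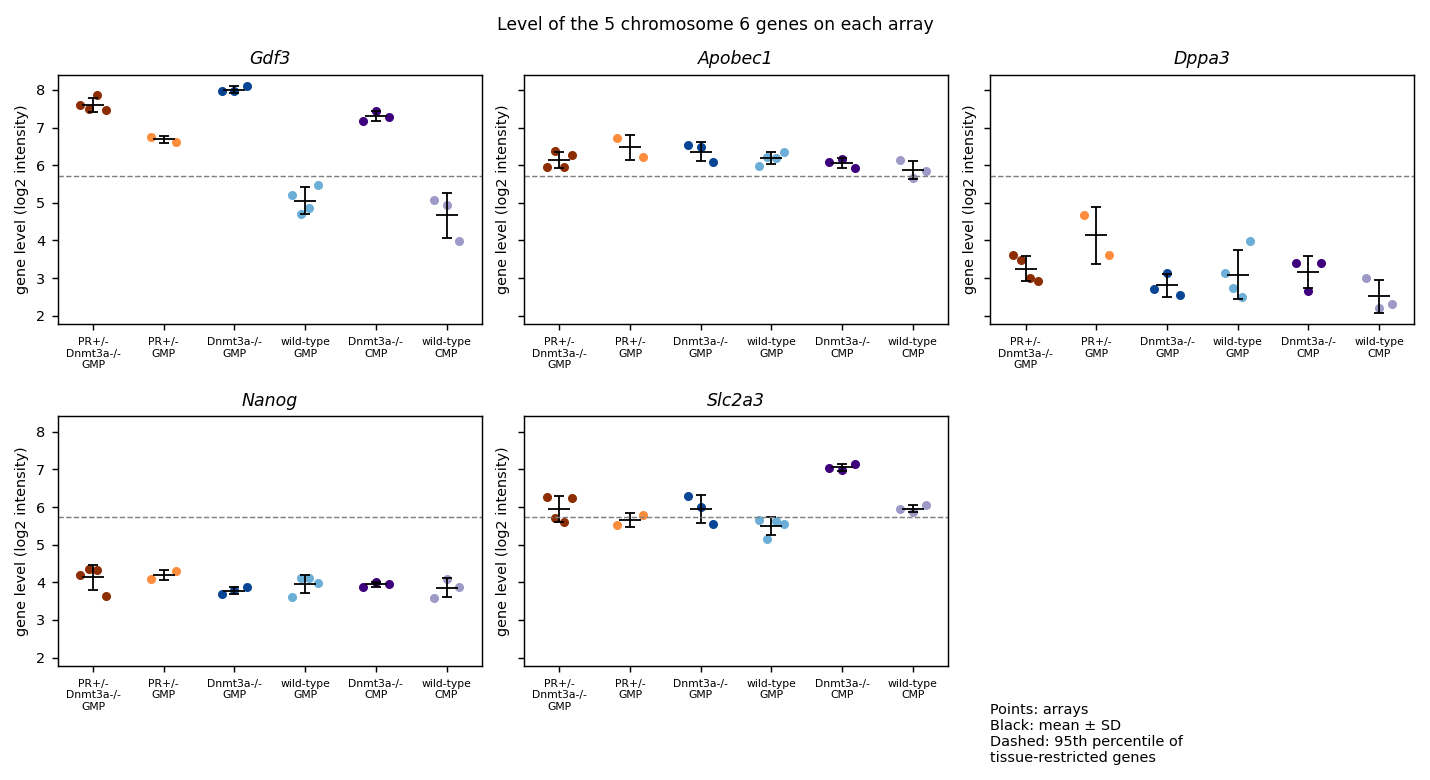
Level of Gdf3, Apobec1, Dppa3, Nanog and Slc2a3 (vertical axis, log2 intensity) on each of the 19 arrays by group, with the mean ± SD in black and the 95th percentile of the tissue-restricted genes (5.73) dashed. Gdf3 lies above the dashed line in every group but the wild-type ones, Slc2a3 is highest in Dnmt3a-/- CMP, and the gene means of Dppa3 and Nanog stay under the line on every array.

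The difference in Gdf3 between Dnmt3a-/- and wild-type cells was 2.95 ± 0.24 (SE) in GMP, a 7.74-fold higher intensity, and 2.64 ± 0.26 in CMP, a 6.22-fold higher intensity. With the Y-linked level as a covariate the differences were 3.14 in GMP and 2.81 in CMP, and without the 5 arrays of high immediate early genes they were 2.84 in both. Every Dnmt3a-/- array in these fits had low Y-linked genes. Among the wild-type arrays only CMP replicate 3 and GMP replicate 4 did. The covariate therefore rests mainly on those arrays, and nothing is read from the adjusted values. Over all genes 1.33% were called in GMP and 1.28% in CMP by limma at an adjusted p under 0.05, and nothing is read from Gdf3 against these shares, since it was picked for this difference.

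In the 6 arrays with PR, which the choice of Gdf3 did not rest on, the difference between PR+/- Dnmt3a-/- and PR+/- GMP was 0.91 ± 0.17 (SE, 95% interval 0.50 to 1.31), a 1.88-fold higher intensity. It did not pass the limma test over all genes (unadjusted p = 0.000981, adjusted p = 0.478). None of the 15781 genes passed in this comparison (0.0%), and 1256 (7.96%) had an unadjusted p under 0.05. All 4 arrays without Dnmt3a were above both arrays with it. The share of all gene means with such a separation was not counted. Among single probe sets with 1 symbol it was 7.78%.

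Between PR+/- and wild-type GMP, both of which have Dnmt3a, Gdf3 differed by 1.63 ± 0.20 (SE, n = 2 and 4), a 3.10-fold higher intensity in PR+/- cells. The wild-type arrays are those that served to pick Gdf3, so no p is given. The PR+/- arrays are labelled in another style than the wild-type ones, and PR and a separate run of the arrays cannot be told apart. The difference that goes with Dnmt3a loss was smaller with PR than without it, and the effect with PR minus the effect without was -2.04 ± 0.27 (SE) on the log2 scale, given without a p for the same reason. Over all genes 0.0317% were called in that contrast of contrasts.

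Between the cell types, Gdf3 was 0.71 ± 0.26 (SE) higher in GMP than in CMP among Dnmt3a-/- cells and 0.39 ± 0.24 higher among wild-type cells, where both gene means are within the background range. No p is given, since these are arrays on which Gdf3 was picked. All 3 Dnmt3a-/- GMP arrays were above the 3 Dnmt3a-/- CMP arrays. The share of all genes with such a separation was not counted, so nothing is read from it.

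The 3 Gdf3 probe sets differed in brightness and in the size of the difference. Probe set 4496239 averaged 9.33 ± 0.21 in Dnmt3a-/- GMP against 5.31 ± 0.28 in wild-type GMP, and 8.75 ± 0.14 in Dnmt3a-/- CMP against 6.46 ± 0.59 in wild-type CMP. Probe set 5355069 averaged 9.16 ± 0.21 in Dnmt3a-/- GMP against 5.47 ± 0.85 in wild-type GMP, and 8.03 ± 0.21 in Dnmt3a-/- CMP against 3.50 ± 1.55 in wild-type CMP. The lowest of those wild-type CMP values was 1.71, on replicate 3, and without that array the gene-level difference in CMP was 2.29. The third, 4813353, was dim, at 5.54 ± 0.03 in Dnmt3a-/- GMP against 4.40 ± 0.29 in wild-type GMP, and 5.13 ± 0.37 in Dnmt3a-/- CMP against 4.05 ± 0.39 in wild-type CMP (SD throughout). Each was higher on every Dnmt3a-/- array than on any wild-type array of the same cell type, against 5.09% of all probe sets in GMP and 8.71% in CMP. Among wild-type arrays 4496239 was above 5.73 on all 3 of CMP (5.78 to 6.84) and on none of GMP, and 5355069 on 2 of the 4 of GMP (up to 6.31) and on none of CMP.

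The dim probe set had the smallest difference in both cell types, 1.14 in GMP and 1.08 in CMP, against 3.69 to 4.02 in GMP and 2.29 to 4.54 in CMP for the bright ones. Between PR+/- Dnmt3a-/- and PR+/- GMP the 3 probe sets differed by 0.98, 0.82 and 0.93, so there they were close to each other, and each was higher on all 4 arrays without Dnmt3a. Over all probe sets with 1 symbol, 7.78% had such a separation upward. Among wild-type cells the probe sets did not share a direction between GMP and CMP, with differences of -1.15 for 4496239, 1.97 for 5355069 and 0.35 for 4813353.

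**Figure D2:**
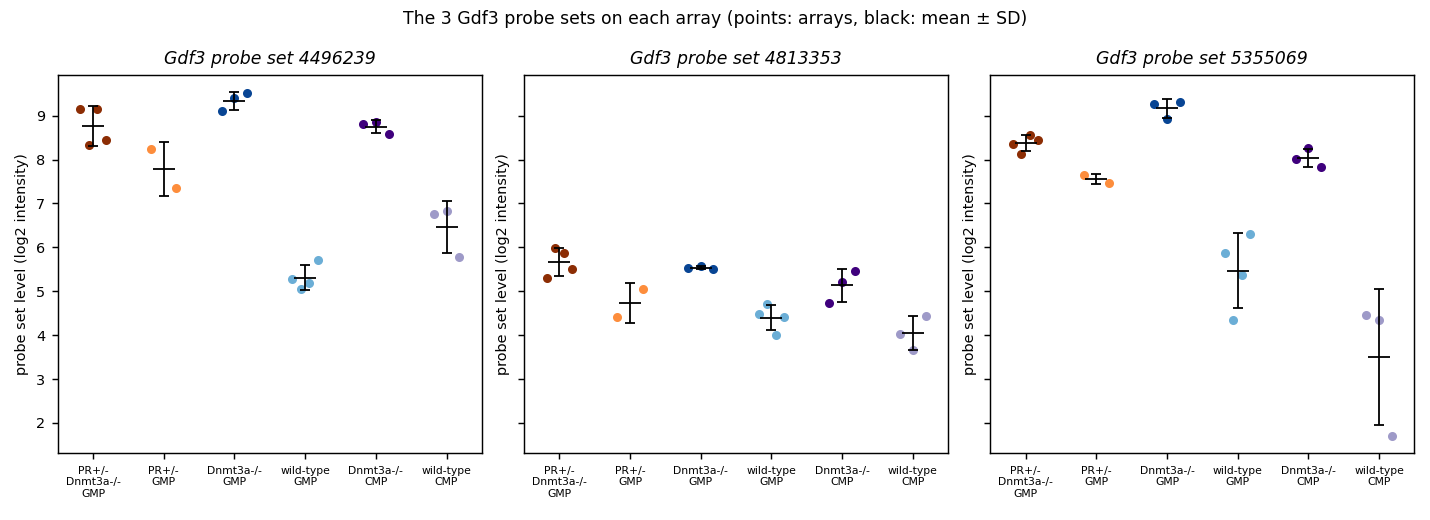
Level of each of the 3 Gdf3 probe sets (vertical axis, log2 intensity) on the 19 arrays by group, with the mean ± SD in black. All 3 are higher in Dnmt3a-/- than in wild-type cells of the same type, and probe set 4813353 is dimmer than the others and has the smallest difference.

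Apobec1, the RNA cytidine deaminase next to Gdf3 on the other side from Dppa3, had group means of 5.88 to 6.47. These lie just above the background range in every group, and the gene did not pass the test in any comparison. Its probe sets were far apart in brightness, with means of 8.45, 7.91 and 7.87 for 4412499, 5211355 and 5541482 and 2.89 for 4384597. It was 6.53, 6.47 and 6.08 in Dnmt3a-/- GMP, against 5.97, 6.21, 6.20 and 6.36 in wild-type GMP. In CMP it was 6.09, 6.16 and 5.92 in Dnmt3a-/- cells, against 6.14, 5.65 and 5.84 in wild-type cells. With PR it was 5.96, 6.37, 5.94 and 6.27 without Dnmt3a, against 6.71 and 6.23 with it. The groups overlapped in all 3 pairs.

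The difference in Apobec1 between Dnmt3a-/- and wild-type cells was 0.18 ± 0.16 (SE) in GMP (limma, adjusted p = 0.552), with a 95% interval of -0.16 to 0.51, and 0.18 ± 0.17 in CMP (adjusted p = 0.70), with an interval of -0.18 to 0.54. The upper ends of these intervals are 0.51 and 0.54. The difference in Gdf3 is no yardstick for them, since Gdf3 was picked for its size. Between PR+/- Dnmt3a-/- and PR+/- GMP it was -0.33 ± 0.21 (adjusted p = 0.674).

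Dppa3, the guardian of maternal methylation and the nearest gene on the other side of Gdf3, was within the background range on every array. It was 2.72, 3.14 and 2.55 in Dnmt3a-/- GMP, against 3.14, 2.74, 2.51 and 3.98 in wild-type GMP, and 3.41, 2.66 and 3.41 in Dnmt3a-/- CMP, against 3.01, 2.21 and 2.32 in wild-type CMP. The groups overlapped in both cell types. With PR it was 3.60, 3.49, 3.01 and 2.92 without Dnmt3a, against 4.67 and 3.61 with it, and these groups were separated by less than 0.01.

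The difference in Dppa3 between Dnmt3a-/- and wild-type cells was -0.29 ± 0.33 (SE) in GMP (limma, adjusted p = 0.648) and 0.65 ± 0.35 in CMP (adjusted p = 0.453). Between PR+/- Dnmt3a-/- and PR+/- GMP it was -0.88 ± 0.33 (adjusted p = 0.62), and between PR+/- and wild-type GMP 1.04 ± 0.38 (adjusted p = 0.174). These are differences between levels that all lie within the background range, from 2 probe sets.

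Nanog, the pluripotency factor, had a mean over its 8 probe sets within the background range on every array. Probe sets 4622830 (mean 6.26) and 4915531 (mean 6.42) were each above 5.73 on 18 of the 19 arrays, all but wild-type CMP replicate 1. It was 3.69, 3.78 and 3.86 in Dnmt3a-/- GMP, against 3.62, 4.13, 4.12 and 3.99 in wild-type GMP. In CMP it was 3.87, 4.0005 and 3.96 in Dnmt3a-/- cells, against 3.59, 4.09 and 3.88 in wild-type cells. With PR it was 4.20, 4.35, 4.34 and 3.64 without Dnmt3a, against 4.10 and 4.29 with it. The groups overlapped in all 3 pairs.

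The difference in Nanog between Dnmt3a-/- and wild-type cells was -0.18 ± 0.15 (SE) in GMP (limma, adjusted p = 0.525), with a 95% interval of -0.51 to 0.15, and 0.09 ± 0.16 in CMP (adjusted p = 0.864), with an interval of -0.26 to 0.45. Between PR+/- Dnmt3a-/- and PR+/- GMP it was -0.06 ± 0.23 (adjusted p = 0.956). Both Nanog and Dppa3 have processed copies elsewhere in the mouse genome, and the probe annotation does not say whether their probe sets also match those. Of 20 further pluripotency genes, 17 were measured and 12 or 13 of them lay within the background range in each group. None of the 17 passed between Dnmt3a-/- and wild-type GMP, CMP or between the PR groups, with a median difference of -0.20 in GMP and 0.05 in CMP, against -0.07 and -0.04 over all genes. The shares of all genes called in these comparisons were 1.33%, 1.28% and 0.0%, so nothing is read from the lack of calls.

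Slc2a3, the glucose transporter gene beyond Nanog, rose in Dnmt3a-/- CMP. It was 7.05, 6.97 and 7.14 there, against 5.94, 5.88 and 6.07 in wild-type CMP. The groups did not overlap, and the difference was 1.09 ± 0.19 (SE, 95% interval 0.69 to 1.49), a 2.13-fold higher intensity (limma, adjusted p = 0.0152). Slc2a3 was the sole gene called among the 4 members by position, where 1.28% of all genes were called. The call did not hold without wild-type CMP replicate 2 (1.05, adjusted p = 0.0572), without Dnmt3a-/- CMP replicate 3 (1.05, adjusted p = 0.0764), with the median of the probe sets (1.19, adjusted p = 0.0734) or with the Y-linked level as a covariate (0.98, adjusted p = 0.118). On the sole wild-type CMP array with low Y-linked genes, replicate 3, Slc2a3 was 6.07, and Gdf3 was 3.98, its lowest value of the 3.

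In GMP Slc2a3 was 6.29, 6.01 and 5.54 in Dnmt3a-/- cells, against 5.65, 5.14, 5.62 and 5.55 in wild-type cells, and these groups overlapped. The difference of 0.45 ± 0.18 (SE) did not pass (limma, adjusted p = 0.203). The difference between the effects in GMP and in CMP, -0.64 ± 0.26, did not pass either (adjusted p = 0.627). In that contrast 0.0% of all genes were called and 6.86% had an unadjusted p under 0.05, so the effect is not shown to differ between the cell types.

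With PR, Slc2a3 was 6.28, 5.72, 5.61 and 6.23 without Dnmt3a, against 5.52 and 5.78 with it. The groups overlapped, and the difference was 0.31 ± 0.24 (SE; limma, adjusted p = 0.72). Between PR+/- and wild-type GMP it was 0.16 ± 0.25 (adjusted p = 0.813), where 3.07% of all genes were called.

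Slc2a3 was lower in GMP than in CMP among Dnmt3a-/- cells, with a difference of -1.11 ± 0.19 (SE; limma, adjusted p = 0.00179), where 10.1% of all genes were called. Among wild-type cells the difference was -0.47 ± 0.18 (adjusted p = 0.181), where 4.3% were called. It was the only member by position called between the cell types; Apobec1 differed by 0.30 ± 0.17 and Nanog by -0.16 ± 0.16 among Dnmt3a-/- cells, and neither passed.

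The 12 Slc2a3 probe sets were all higher in Dnmt3a-/- than in wild-type CMP, by 0.26 to 2.37, and 8 of them were higher on every Dnmt3a-/- array than on any wild-type one, against 8.71% of all probe sets. The brightest, 4412037, averaged 10.45 in Dnmt3a-/- CMP against 9.42 in wild-type CMP, a difference of 1.03. The largest difference was that of 4663913, at 7.19 against 4.82. In GMP the 12 differed by 0.03 to 1.19 and 1 of them separated the groups, against 5.09% of all probe sets. Between GMP and CMP without Dnmt3a, 9 of the 12 were lower on every GMP array, against 11.7% of all probe sets.

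**Figure D3:**
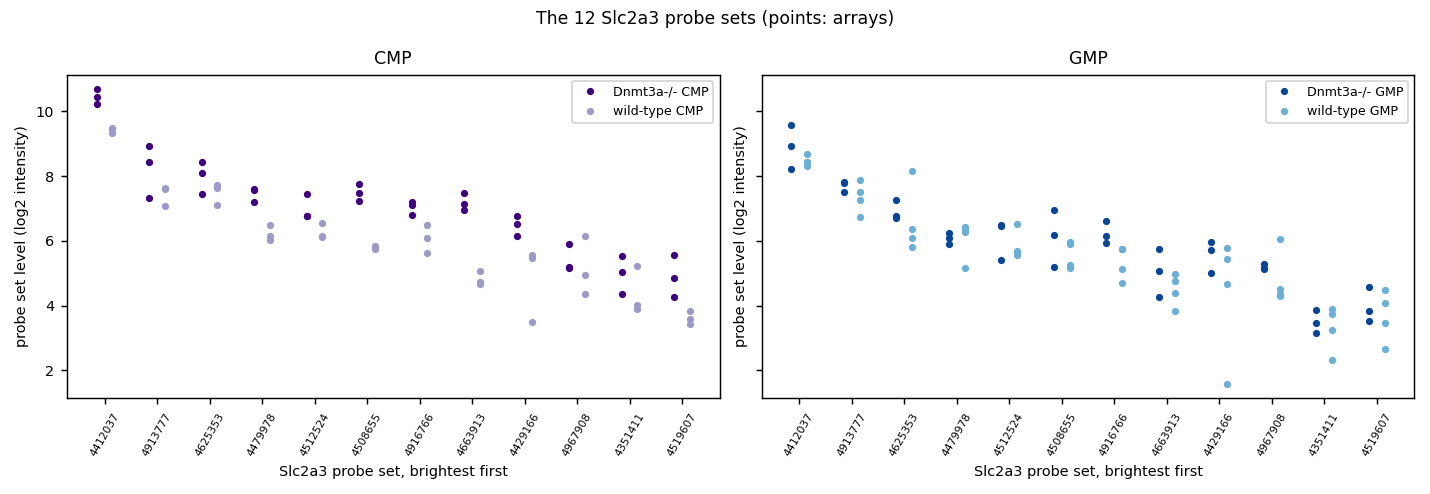
Level of each of the 12 Slc2a3 probe sets (vertical axis, log2 intensity), brightest first, on the Dnmt3a-/- and wild-type arrays of CMP (left panel) and GMP (right panel). In CMP all 12 have a higher mean in Dnmt3a-/- cells and 8 separate the groups, while in GMP 1 of them does.

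Glucose transport and its use downstream were measured in part. Of 10 other hexose transporter genes 8 were measured, and none passed between Dnmt3a-/- and wild-type CMP or GMP, with a median difference of -0.16 in GMP and -0.24 in CMP. Of 19 glycolysis genes 13 were measured, and none passed in either cell type, with a median of 0.22 in GMP and -0.10 in CMP against -0.07 and -0.04 over all genes. Since 1.33% of all genes were called in GMP and 1.28% in CMP, nothing is read from the lack of calls in these 2 lists. Between GMP and CMP without Dnmt3a 5 of these 13 were higher and 2 lower in GMP, where 10.1% of all genes were called. The higher ones include the hexokinase Hk2 (0.96 ± 0.22, SE; limma, adjusted p = 0.0133) and the glucose phosphate isomerase Gpi1 (0.88 ± 0.14, adjusted p = 0.000943). Among wild-type cells none was higher and 3 were lower in GMP, where 4.3% of all genes were called, namely the phosphofructokinase Pfkm (-0.98), the aldolase Aldoc (-0.74) and the hexokinase Hk1 (-0.53).

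The genes through which a ligand like Gdf3 signals were examined as lists. Of 19 other ligands of the Nodal, activin, BMP and TGF-beta groups 14 were measured, and 13 of them lay within the background range in every group. Of 16 receptors and co-receptors 14 were measured, of 15 Smads and their nuclear partners 15, of 9 secreted inhibitors and binding proteins 9, and of 12 Smad target genes 10. Between Dnmt3a-/- and wild-type cells no ligand, receptor or Smad passed in GMP or CMP, where 1.33% and 1.28% of all genes were called. At such shares lists of this length can have no call, so nothing is read from that. The medians were -0.17, 0.05 and 0.02 in GMP and -0.04, 0.18 and 0.01 in CMP, against -0.07 and -0.04 over all genes.

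Among the target genes Id2, an inhibitor of basic helix-loop-helix factors that also marks dendritic and lymphoid cells, was the 1 of 10 that passed, where 1.33% of all genes were called in GMP and 1.28% in CMP. It rose by 1.69 ± 0.19 (SE; limma, adjusted p = 0.00111) in Dnmt3a-/- GMP and by 2.53 ± 0.20 (adjusted p = 0.00015) in Dnmt3a-/- CMP. Of the inhibitors and binding proteins Ltbp1, which tethers latent TGF-beta to the matrix, rose by 0.83 ± 0.18 in Dnmt3a-/- CMP (adjusted p = 0.0475), with a mean of 5.63 against 4.79 in wild-type CMP, both within the background range. The Ltbp1 call held in 6 of 15 alternatives. It did not hold with the median of the probe sets (adjusted p = 0.1), the brighter probe sets (0.222), arrays shifted to 1 median (0.0556), only the groups compared (0.143) or the Y-linked covariate (0.147), nor in 4 of the 6 fits that left out 1 array (adjusted p up to 0.195), and those arrays are wild-type CMP replicates 2 and 3 and Dnmt3a-/- CMP replicates 1 and 3.

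Between PR+/- and wild-type GMP, where 3.07% of all genes were called, the ligand Tgfb1 rose by 0.80 ± 0.17 (SE; limma, adjusted p = 0.0214), the co-receptor Tgfbr3 rose by 0.77 ± 0.18 (adjusted p = 0.037) and the co-receptor Eng fell by 0.93 ± 0.18 (adjusted p = 0.0154). Id2 rose by 2.29 ± 0.37 (adjusted p = 0.00534), and Klf5, a Krüppel-like factor of pluripotent and epithelial cells, by 1.13 ± 0.21 (adjusted p = 0.0107). Without PR+/- replicate 1 none of these 5 passed, with adjusted p of 0.396 for Tgfb1, 0.293 for Tgfbr3, 0.247 for Eng, 0.0741 for Id2 and 0.247 for Klf5. Some calls were also lost without another array. These were Tgfb1 without wild-type GMP replicate 4 (adjusted p = 0.0562), and Tgfbr3 without wild-type GMP replicate 1, 3 or 4 (0.0687 to 0.0773). Eng and Tgfbr3 also lost theirs without PR+/- replicate 2, which leaves 1 array in that group. Over all alternatives, processing included, the call held in 4 of 15 for Tgfbr3 and 9 of 15 for Tgfb1. It held in 12 of 15 for Eng, 14 of 15 for Id2 and 14 of 15 for Klf5. Tgfbr3 and Eng were also lower in GMP than in CMP among wild-type cells, with differences of -1.96 ± 0.23 and -0.92 ± 0.15 (adjusted p = 0.000686 and 0.00312).

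The stretch of chromosome 6 around Gdf3 was then read gene by gene. Of the 20 gene entries on either side, 21 of 40 were measured and 14 of these 21 had a mean within the background range. Of the 21, none was called lower and 1 was called higher in Dnmt3a-/- GMP (0.9% of all genes; median difference -0.03, against -0.07 over all genes), and 2 were called higher in Dnmt3a-/- CMP (0.919% of all genes; median 0.11, against -0.04). These are Slc2a3 in CMP and Clec4a1, a C-type lectin receptor gene of myeloid cells 14 entries from Gdf3, in both.

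Clec4a1 rose by 1.05 ± 0.18 (SE; limma, adjusted p = 0.0143) in Dnmt3a-/- GMP, at 4.68 to 5.30 against 3.76 to 4.20 in wild-type GMP, and by 0.91 ± 0.19 (adjusted p = 0.0362) in Dnmt3a-/- CMP, at 4.45 to 4.996 against 3.70 to 3.85 in wild-type CMP. All of these levels are within the background range. In CMP the call was lost in each of the 6 fits that left out 1 array (adjusted p 0.0546 to 0.17). In GMP it was lost in 2 of 7, without Dnmt3a-/- GMP replicate 1 or 2 (0.0856 and 0.0646). Over all alternatives, processing included, the call held in 3 of 15 in CMP (adjusted p up to 0.31). In GMP it held in 10 of 16 (adjusted p up to 0.161). The genes between Gdf3 and Clec4a1 that were not called include Foxj2, a forkhead factor, and Necap1, an endocytosis factor.

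Between PR+/- Dnmt3a-/- and PR+/- GMP none of the 21 neighbours passed. Since none of the 15781 genes passed there (0.0%), nothing is read from this about the neighbours. Between PR+/- and wild-type GMP, where 3.07% of all genes were called, C3ar1, the receptor for complement fragment C3a, rose by 1.79 ± 0.36 (SE; limma, adjusted p = 0.0174). Its levels were 4.99 and 5.59 in PR+/- cells against 3.16 to 3.69 in wild-type cells. Without PR+/- replicate 1, which leaves 1 array in that group, the difference was 1.49. Between GMP and CMP in wild-type cells the lectin receptor gene Clec4a2 rose by 2.01 and the Polycomb gene Phc1 fell by 0.79, and both were called, where 4.3% of all genes were called. The Clec4a2 call was lost without wild-type CMP replicate 1 (1.37, adjusted p = 0.0542) or wild-type GMP replicate 3 (1.87, adjusted p = 0.0537). Over all alternatives, processing included, the Clec4a2 call held in 12 of 17 and the C3ar1 call in 11 of 14. Among Dnmt3a-/- cells, where 10.1% of all genes were called, 2 of the 21 neighbours were called higher in GMP than in CMP and 2 lower. The differences were 3.39 for Clec4b2 and 2.72 for Clec4a2, and -1.11 for Slc2a3 and -0.865 for Phc1. No alternatives are given for Clec4b2, Clec4a2 and Phc1 in that comparison.

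**Figure D4:**
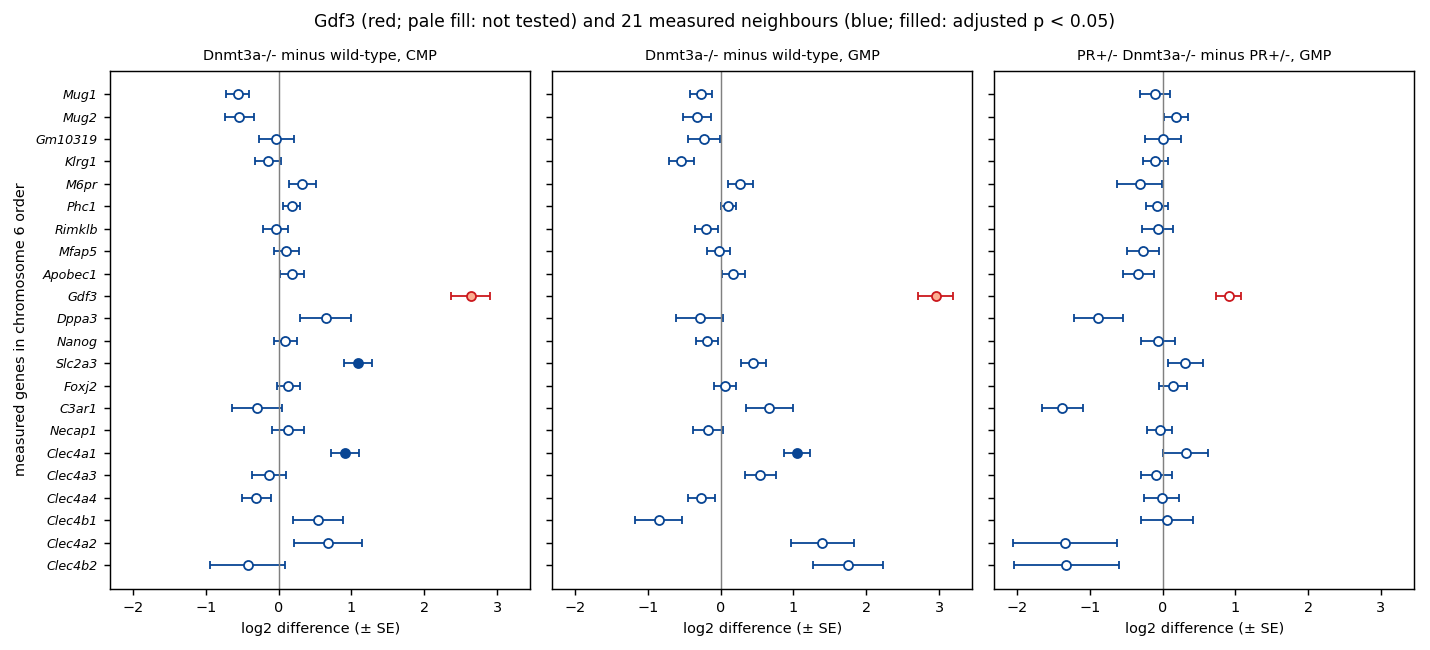
Log2 difference ± SE (horizontal axis) of Gdf3 and its 21 measured neighbours, in chromosome 6 order down the page, for Dnmt3a-/- minus wild-type CMP, Dnmt3a-/- minus wild-type GMP and PR+/- Dnmt3a-/- minus PR+/- GMP. Gdf3 stands at 2.64, 2.95 and 0.91, while Apobec1, Dppa3 and Nanog beside it lie between -0.88 and 0.65. Gdf3 was picked for its differences between Dnmt3a-/- and wild-type cells.

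Markers of other cell types moved with the same groups. In Dnmt3a-/- CMP, where 0.919% of all genes were called higher, 8 of 14 dendritic cell markers rose (array means 7.21 to 7.85, against 5.75 to 6.19 in wild-type CMP), as did 6 of 10 measured megakaryocyte and platelet markers (7.48 to 7.89, against 6.11 to 6.23) and 3 of 12 mature neutrophil markers (9.09 to 10.55, against 8.29 to 8.36). In Dnmt3a-/- GMP, where 0.9% of all genes were called higher, 4 of 14 dendritic cell markers (5.59 to 5.87, against 4.57 to 4.95 in wild-type GMP), 4 of 12 neutrophil markers (8.99 to 10.22, against 8.03 to 8.56) and 3 of 10 basophil and mast cell markers (7.56 to 8.06, against 6.47 to 6.92) rose. The 4 dendritic cell markers in GMP were H2-Aa, H2-Eb1, Cd74 and H2-Ab1, all genes of MHC class II presentation. No other gene of that list was called higher in GMP, and the same 4 had the largest differences of the list in CMP. The stem and multipotent progenitor list (4 of 11 measured genes higher) and the B cell list (2 of 8) also had calls in Dnmt3a-/- CMP, and the megakaryocyte and platelet list (2 of 10) in Dnmt3a-/- GMP. Of the 11 genes that define CMP and GMP, 3 were lower in Dnmt3a-/- CMP, the granule genes Mpo, Ctsg and Prtn3. In PR+/- GMP, where 3.07% of all genes were called against wild-type GMP in either direction, 5 of 10 basophil and mast cell markers rose (8.09 on both arrays, against 6.47 to 6.92 in wild-type GMP). Other lists had calls there too. Itga2b (2.30), Lcn2 (1.62), Adgre1 (1.33) and Gata1 (1.17) were higher, and Ly86 (-2.61), Meis1 (-1.83) and Csf1r (-1.66) were lower. No alternatives are given for these calls.

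Monocyte and macrophage markers went the other way in part, with 1 of 14 higher and 3 lower in Dnmt3a-/- CMP (6.22 to 6.34, against 6.44 to 6.75) and 2 lower in Dnmt3a-/- GMP (6.67 to 6.73, against 6.80 to 6.98). Of 10 measured T and NK cell markers, 9 lay within the background range in every group. Between PR+/- Dnmt3a-/- and PR+/- GMP no marker of any list passed, and the dendritic cell markers averaged 4.66 to 4.93 there, against 4.54 and 4.91. None of the 15781 genes passed in that comparison (0.0%), so nothing is read from the lack of calls. The part of other cell types in the levels of Gdf3, Slc2a3 and Id2 was not tested.

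By Pearson correlation with Gdf3 over the 19 arrays, which share groups and processing, the 8 genes most like it were Gstm2 (0.909), Adi1 (0.891), Dnah8 (0.868), Vcl (0.851), Slfn9 (0.838), Msl3l2 (0.837), Tex15 (0.831) and Gmpr (0.825). Gstm2 encodes a glutathione transferase, Vcl the adhesion protein vinculin, and Tex15 a protein of male germ cells. Gstm2 averaged 3.67 in Dnmt3a-/- GMP against 1.89 in wild-type GMP, both within the background range, and Dnah8, an axonemal dynein heavy chain, 7.74 against 5.73. The correlation with Gdf3 was 0.37 for Slc2a3, 0.33 for Apobec1, 0.26 for Dppa3 and 0.08 for Nanog. Gdf3 was picked on 13 of these 19 arrays and the other members were taken by position, so the choice itself bears on these values. Of these 8 genes, 4 were also among the top 8 by Spearman correlation and 3 by Pearson correlation over the 13 arrays without PR.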

How the data were processed

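Per the labels, RNA extracted with TRIzol was amplified and labelled with biotin by NuGen kits. The authors deposited 1 linear intensity for each of 194293 probe sets on the 19 arrays. The names RMA, Partek and mm9 are per the submitters' processing notes, with no role or version. The sources used here do not say if the arrays were normalised jointly. Array medians lay between 53.0 and 56.8. The log2 of each intensity was taken and averaged per gene over the probe sets with that symbol alone (179496 in all, 1328 with several and 13469 with none left out). Symbols were updated through a GRCm38.p6 gene table, used for names and gene order only (13727 as annotated, 2039 by synonym, 37 kept). No genes were filtered.

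Groups were compared with limma 3.58.1 in R 4.3.3 (lmFit and eBayes, two-sided), with Benjamini-Hochberg adjustment over 15781 genes and a threshold of 0.05. The fits used the 13 wild-type and Dnmt3a-/- arrays, the 6 PR arrays, or the 13 GMP arrays (PR+/- against wild type, and the contrast of effects with and without PR). On simulated data the test called 88% (CMP), 98% (GMP) and 78% (PR groups) of the genes changed by 1.5 on the log2 scale between Dnmt3a-/- and matched cells, among 15781 genes. The simulated noise was normal and independent, with 1 spread per gene pooled over the groups, and other genes were changed by 3. These shares need not hold for the real arrays, where none of the 15781 genes passed between the PR groups. The members and lists were chosen with earlier results of these data known. A test of Gdf3 was planned in PR+/- against wild-type GMP, in GMP against CMP and in the contrasts of effects, and is not given because those use arrays it was picked on. Genes named beside the members passed the test in a list (up to the 4 largest per list and comparison), among the neighbours, or were the 8 most like Gdf3. Those of no such kind (Foxj2, Necap1) were named for their place. Alternatives are in the closing section. For arrays, their number limits the precision.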

Additional observations from a re-analysis of the deposited data

Results flagged for a closer look

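The difference in Gdf3 that goes with Dnmt3a loss was smaller in PR+/- GMP than in GMP without PR, and the first minus the second was -2.04 ± 0.27 (SE) on the log2 scale. The parts are 0.91 between PR+/- Dnmt3a-/- and PR+/- GMP and 2.95 between Dnmt3a-/- and wild-type GMP. It stands out because effects under the same contrast differ between the backgrounds, and 5 of 15781 genes (0.0317%) were called in that contrast, all lower. Gdf3 was picked on the arrays of the second part, so the value is a description.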

How the results depend on the processing

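Of the values of the 5 members under the alternatives, 432 kept their direction and their side of the threshold or, for Gdf3 where no test is given, moved by less than the spread between replicates. The median of the probe sets and the mean of the brighter ones gave larger differences for Gdf3, 3.89 and 3.86 in Dnmt3a-/- against wild-type GMP, 3.62 and 3.41 in CMP, 2.28 and 2.28 in PR+/- against wild-type GMP, and -3.01 and -2.96 for the contrast of effects with and without PR. The mean of the brighter ones leaves the dim probe set out. The median takes the middle probe set on each array, which was the dim one on wild-type CMP replicate 3 and wild-type GMP replicate 2. Slc2a3 in CMP did not pass with the median (1.19) or the Y-linked covariate (0.98), and its values without 1 array were 1.05 to 1.14. Slc2a3 passed in GMP with array weights (0.48) and Dppa3 in PR+/- against wild-type GMP with the brighter probe sets (1.08). Gdf3 in GMP against CMP without Dnmt3a was 1.07 with the median, 0.86 with the brighter probe sets and 0.58 with quantile normalisation. Directions turned for values near 0. With the median these were Apobec1 in CMP (-0.0414), Nanog in GMP (0.0154) and Nanog between wild-type GMP and CMP (-0.0357). With the brighter probe sets they were Dppa3 in GMP (0.10), Slc2a3 in PR+/- against wild-type GMP (-0.0581), Slc2a3 in the contrast of effects with and without PR (0.0153) and Nanog between wild-type GMP and CMP (-0.13). Nanog also turned in GMP with quantile normalisation (0.0033), and in CMP with array weights (-0.0238) and without the 5 arrays of high immediate early genes (-0.0385). Without 1 array, Nanog ran from -0.0385 to 0.21 in CMP, from -0.16 to 0.10 between the PR groups and from -0.0193 to 0.23 between wild-type GMP and CMP, and Dppa3 from -0.48 to 0.0064 in GMP. The cause was not tested except where stated.

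The replicate numbers of the PR groups are not stated to mark pairs, and same-numbered arrays deviated together with r of 0.0774 and 0.0169. With the replicate block, Gdf3 differed by 0.85 (adjusted p = 0.192), Nanog by 0.0838, and no gene passed. Dppa3 and Nanog have no value under the filter on dim genes. Of the values of genes that are not members, 145 kept their call and 57 lost it. Shifting arrays to 1 median changed the genes called higher and lower between GMP and CMP without Dnmt3a to 1206 and 530, against 868 and 722, and in wild-type cells to 375 and 312, against 295 and 383. Quantile normalisation gave 269 and 198 for PR+/- against wild-type GMP, against 345 and 139. The alternatives for GMP against CMP without Dnmt3a and for the contrasts of effects were added after seeing the data.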
